A study of Mus musculus with 24 samples.

Results

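The 4 Hox clusters of the mouse were described here through 38 member genes and the 100 bp tiles of DNA methylation that fell on them. A tile was counted for a member if it overlapped the window from 5000 bp upstream of the transcription start to the end of the gene, on mm10 with RefSeq annotation. Of 758685 tiles measured in liver, brain and heart alike, 823 lay in these windows, and 167 of them lay in the windows of more than 1 member because neighbouring Hox genes are close together. Cluster A (10 members, 245 tiles, chr6:52162417-52260880) is transcribed from the minus strand, and cluster B (10 members, 194 tiles, chr11:96194316-96368253), cluster C (9 members, 173 tiles, chr15:102921131-103036852) and cluster D (9 members, 211 tiles, chr2:74668225-74765142) from the plus strand.

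The study asked whether DNA methylation differs between male and female isogenic mice, and used enhanced reduced representation bisulphite sequencing (RRBS), which reads cytosine methylation at CpG-rich fragments cut out by a restriction enzyme. There were 12 liver, 6 brain and 6 heart libraries from untreated C57BL/6J mice of both genders at 24 weeks of age, and 6 of the 12 mice gave all 3 tissues. Liver was taken from the left lobe, heart from the apex, and brain as a coronal piece from its rostral end, so each is a mixture of cell types. Because the columns of the tables match no mouse, libraries were grouped by tissue only and genders were not compared. A tile's level is the share of reads that are methylated over all cells of the sample, so that more methylation per cell and more cells with methylation cannot be told apart.

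Hox genes encode homeodomain transcription factors that give the body its head-to-tail pattern. Within a cluster the genes lie in the order in which they are used: paralogue group 1 at the 3′ end is switched on first and most anteriorly, and group 13 at the 5′ end last and most posteriorly. In cells that do not use them, Hox clusters are known as long CpG-rich domains held silent mainly by Polycomb proteins and their histone marks, with little DNA methylation.

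Over all tiles the libraries had mean levels of 64.8 to 66.1% in liver, 63.7 to 66.4% in brain and 59.6 to 60.3% in heart, and libraries of a tissue correlated with r of at least 0.942 across tiles, against at most 0.923 between tissues. Read counts were not used here and the depth behind each tile is unknown beyond the authors' minimum of 10 reads, so no counting error can be given. Tissue markers near their transcription starts were lowest in the tissue named for 4 of the 4 measured liver genes, 7 of the 8 brain genes and 3 of the 7 heart genes. In heart the exceptions were Actn2, Myh7, Nppa and Ryr2, and in brain Grin1. Liver column 8 had the highest level over the Hox tiles of its tissue, brain column 3 the highest and brain column 6 the lowest, and the results that rest most on them are also given without them.

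Hox windows were lowly methylated in all 3 tissues. The median Hox tile stood at 5.91% (liver), 3.85% (brain) and 3.85% (heart), where the median of all tiles was 80.8%, 79.5% and 71.9%. Levels below 20% were found at 756 of the 823 Hox tiles in liver (91.9%), 776 in brain (94.3%) and 753 in heart (91.5%), compared with 18.3%, 17.1% and 19.2% of all tiles. Levels above 50% were found at 8, 6 and 4 Hox tiles. Averaged over the 823 tiles, liver libraries ranged from 7.97 to 9.92% with a median of 8.55%, brain libraries from 5.16 to 8.70% with a median of 6.95%, and heart libraries from 7.01 to 7.58% with a median of 7.19%. The brain range spanned that of heart and overlapped that of liver. Hox tiles were not the emptiest tiles of the genome. The 763 Hox tiles with a mean level below 20% averaged 6.83% (liver), 5.12% (brain) and 5.17% (heart), while the 129160 other tiles with a mean level below 20% averaged 3.99% ± 0.40 (SD, n = 12) in liver, 3.98% ± 0.25 (SD, n = 6) in brain and 2.99% ± 0.15 (SD, n = 6) in heart.

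**Figure D1:**
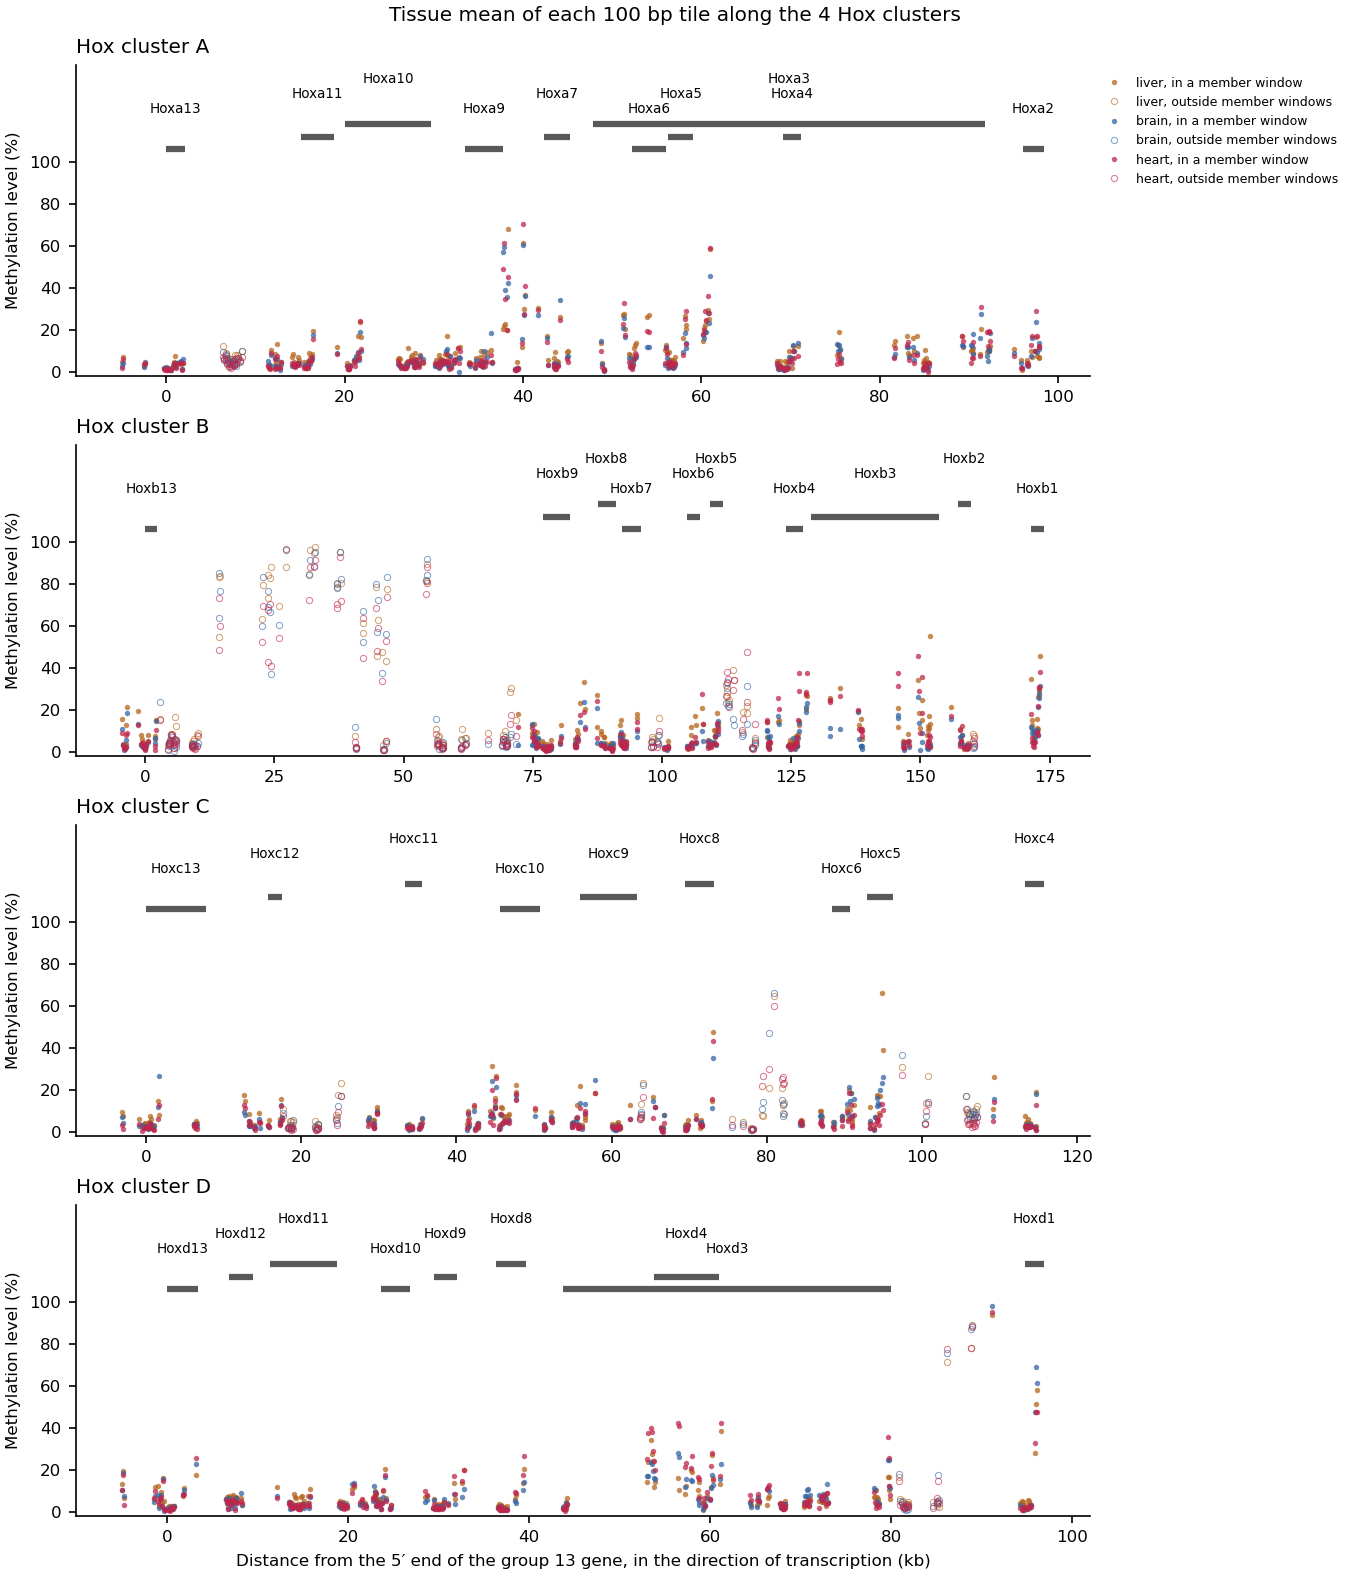
Each point is the tissue mean of a 100 bp tile (y axis, percent) against its distance in kb from the 5′ end of the group 13 gene, with liver in brown, brain in blue and heart in red, filled points in member windows and open points outside them, and bars above for the genes. Most points lie below 20% in all 4 clusters, and the many open points above 50% in cluster B lie in the interval between Hoxb13 and Hoxb9.

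The low level did not depend on CpG-rich tiles alone. Hox tiles held a median of 5 CpGs, against 2 for all tiles, and the 284 Hox tiles with 7 or more CpGs had a median of 3.95% in liver, 2.53% in brain and 2.27% in heart. All tiles with 7 or more CpGs had still lower medians, at 1.45%, 0.933% and 1.13%. In the 149 Hox tiles with only 1 or 2 CpGs the medians were 8.59%, 7.47% and 6.47%, while all 391733 such tiles had medians of 82.4%, 81.7% and 73.7%. In the 390 Hox tiles with 3 to 6 CpGs they were 6.97%, 4.92% and 4.55%, beside 84.6%, 82.3% and 77.6% for all such tiles. By medians, Hox tiles thus lay far below the rest in both classes with fewer CpGs and slightly above it in the CpG-rich class. By means the CpG-rich Hox tiles were the lower, at 5.17%, 3.45% and 3.5% beside 17.8%, 17.1% and 16.5%. Of all such tiles 17.7%, 17.2% and 16.9% were above 50%, and of the Hox tiles none was. By annotation, the 262 tiles in coding sequence had medians of 4.72%, 3.2% and 3.02%, the 135 promoter tiles 5.48%, 3.13% and 3.22%, the 177 intron tiles 6.5%, 5.08% and 4.72%, and the 142 tiles between genes 6.22%, 4.34% and 4.19% in liver, brain and heart. The 107 tiles in other exon sequence were highest, with medians of 8.23%, 6.70% and 5.98%. Tiles within 0.5 kb of a Hox start had medians of 4.0%, 2.5% and 2.3%, and those more than 2 kb downstream 7.4%, 6.5% and 6.3%.

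Low methylation was less general outside the clusters. In the 198 tiles 50 to 100 kb beyond the outermost windows, medians were 77.7% in liver, 76.5% in brain and 66.5% in heart. By cluster the liver medians were 67.1% (A), 81.0% (B), 71.8% (C) and 60.02% (D). The share of these tiles below 20% in liver was 36.5%, 10.7%, 21.1% and 45.8%. Around clusters A and D it stayed well above the 18.3% of all tiles, around C slightly above it, and around B it was below. Inside cluster B, higher stretches lay in the 69719 bp between Hoxb13 and Hoxb9 (chr11:96196611-96266329), where 27 of 84 tiles were above 50% in liver, 28 in brain and 24 in heart. Most tiles there were low all the same, with medians of 8.45%, 5.27% and 5.26% and with 52, 53 and 54 of the 84 below 20%. Few tiles outside member windows passed 50% within the other clusters: none of 19 in cluster A, 1 of 50 in cluster C and 3 of 18 in cluster D, in each tissue.

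As single genes, all 38 members had a window mean below 20% in liver, 37 in brain and 37 in heart. Among all 16166 protein-coding genes with at least 5 tiles, 9.61%, 9.58% and 10.7% did. The exceptions were Hoxd1 in brain at 21.2% and Hoxd4 in heart at 21.7%. The median member had 7.30% (liver), 5.48% (brain) and 5.65% (heart), and the median gene 55.5%, 54.8% and 51.3%.

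The lowest member of all was Hoxa13, a regulator of limb tips and the urogenital tract, with 20 tiles (chr6:52258853-52260880). Its liver libraries ranged from 2.37 to 4.13% (median 2.98%), its brain libraries from 2.28 to 3.43% (median 2.64%) and its heart libraries from 1.79 to 2.93% (median 2.48%). The ranges of the 3 tissues overlapped. The 250 bases before its start are shown as an example of a nearly unmethylated stretch: the 4 tiles on them had levels of 1.13 to 2.12% in liver, 0.883 to 1.88% in brain and 0.517 to 1.0% in heart. This RefSeq promoter (GRCm38.p6, minus strand, chr6:52260881-52261130) holds 35 CpGs, shown in capitals.
Hoxa13 promoter: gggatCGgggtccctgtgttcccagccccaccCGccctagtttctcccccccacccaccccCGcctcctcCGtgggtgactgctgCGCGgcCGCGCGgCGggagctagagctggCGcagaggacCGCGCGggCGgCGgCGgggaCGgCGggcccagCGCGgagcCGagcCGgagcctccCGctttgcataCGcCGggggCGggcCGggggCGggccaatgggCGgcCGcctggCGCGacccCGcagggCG
Promoter sequences were found for 22 of the 38 members, and 19 of their 24 promoters of 300 bp (79.2%) held the letters CCGG on either strand, the site of the enzyme MspI, against 52.8% of all 32851 promoters.

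The lowest members of the other clusters were Hoxb6, Hoxc11 and Hoxd9. Hoxb6 had a mean of 5.61% ± 0.91 (SD, n = 12) in liver, 2.44% ± 0.45 (SD, n = 6) in brain and 2.70% ± 0.38 (SD, n = 6) in heart. Its liver libraries, from 4.35 to 7.05%, all lay above its brain libraries, from 1.91 to 2.95%, and its heart libraries, from 2.12 to 3.18%. Hoxc11 ranged from 3.52 to 6.99% in liver, 3.36 to 4.48% in brain and 2.67 to 3.80% in heart. Hoxd9 ranged from 3.34 to 5.19% in liver, 2.32 to 3.99% in brain and 3.49 to 4.64% in heart. In both genes the ranges of the 3 tissues overlapped.

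The highest members were Hoxa7, Hoxb1, Hoxc5 and Hoxd1. Hoxa7, which acts in the thoracic region, ranged from 15.1 to 19.8% in liver (median 17.2%), 16.1 to 22.0% in brain (median 19.7%) and 17.0 to 19.8% in heart (median 18.5%), with overlap between all tissues. Hoxd1 ranged from 17.5 to 21.9% in liver (median 19.3%), 18.5 to 23.5% in brain (median 21.3%) and 16.4 to 18.6% in heart (median 16.8%). Its level rested on few tiles, since the median over its 14 tiles stood at only 4.80%, 2.48% and 2.32% in these tissues. Hoxb1, a hindbrain gene with a well-known autoregulatory enhancer, ranged from 15.1 to 19.7% in liver (median 18.4%) and from 11.6 to 14.7% in heart (median 13.6%), without overlap. Its brain libraries ran from 5.43 to 23.6% and covered both. Hoxc5 ranged from 12.3 to 14.7% in liver (median 13.2%), 7.22 to 17.3% in brain (median 9.88%) and 4.82 to 6.57% in heart (median 6.47%), and heart lay below every library of the other tissues.

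**Figure D2:**
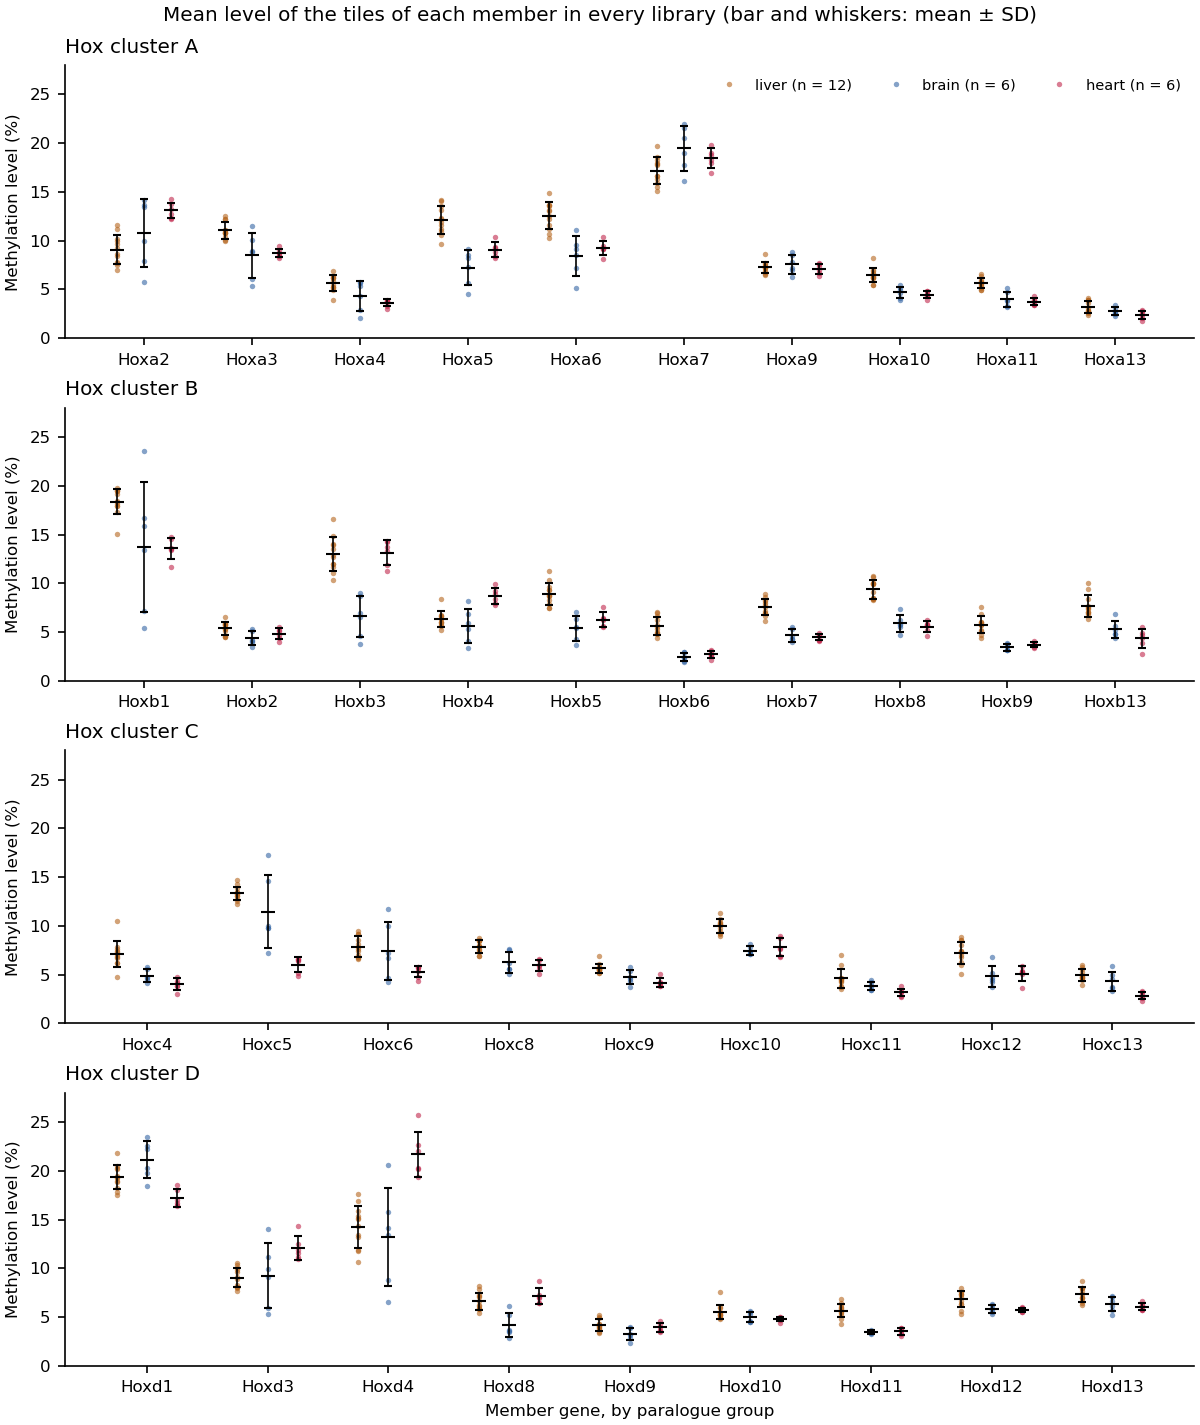
Mean level in percent of the tiles of each member (y axis) in every liver, brain and heart library (points), with the mean ± SD per tissue, ordered by paralogue group in each cluster (x axis). The highest library is at 25.7%, a heart library at Hoxd4, and the brain points spread most at Hoxb1, from 5.43 to 23.6%.

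Members at the 3′ end of the clusters, which pattern the anterior body, were higher than those at the 5′ end. The 16 genes of groups 9 to 13 had a median window mean of 5.71% in liver, 4.72% in brain and 4.26% in heart, and none was above 9.97%. The 11 genes of groups 5 to 8 had medians of 8.93%, 6.25% and 6.01%. The 11 genes of groups 1 to 4 had medians of 9.08%, 8.49% and 12.1%. Across the 38 members, Spearman's rho between paralogue group and level was -0.53 (liver), -0.52 (brain) and -0.59 (heart), and it was negative in each of the 4 clusters and 3 tissues, from -0.18 for cluster B in liver to -0.71 for cluster B in heart. These members are not independent points, because they share libraries, neighbouring windows and CpG content. The order of the medians was not strict within groups: Hoxb2 and Hoxa4, of groups 2 and 4, had liver means of 5.40% and 5.65%, below that of Hoxc10 at 9.97%.

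Cluster A averaged 9.06% ± 0.57 (SD, n = 12) over the liver libraries, 7.69% ± 1.58 (SD, n = 6) over those of brain and 7.83% ± 0.22 (SD, n = 6) over those of heart. The values were 9.48% ± 0.84, 5.98% ± 1.37 and 7.68% ± 0.28 for cluster B, and 7.73% ± 0.46, 6.12% ± 0.89 and 4.97% ± 0.31 for cluster C, in the same order and with the same n. Cluster D had 7.78% ± 0.55 in liver, 7.20% ± 1.39 in brain and 8.05% ± 0.54 in heart. Liver was the highest tissue in clusters A, B and C and heart in cluster D, where the ranges of the 3 tissues overlapped (7.02 to 8.79%, 5.48 to 9.22% and 7.55 to 9.04%). By the median over the tiles of cluster D liver was highest instead, at 4.92% beside 3.75% in brain and 3.92% in heart, and likewise within 1 kb of the starts, at 5.86% beside 4.30% and 4.92%.

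Brain libraries differed more from each other at the 3′ genes than at the 5′ genes, and libraries of liver and heart did so to a smaller extent. Over the 299 tiles of groups 1 to 4, the brain columns 1 to 6 had means of 9.46%, 6.55%, 12.3%, 10.3%, 9.28% and 5.64%. Without columns 3 and 6 the range was still 6.55 to 10.3%. Over the 385 tiles of groups 9 to 13 the range was only 4.54 to 5.40%, and over the other tiles below 20% it was 3.69 to 4.33%. Brain columns 3 and 6 lay at the ends for 20 and 22 of the 38 members: column 3 was the highest brain library at 20 members, and column 6 the lowest at 22. Over all tiles column 6 had the highest mean of the brain libraries (66.4%) and column 1 the lowest (63.7%), so column 6 was low at Hox tiles and not in general.

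The between-library SD in brain was 6.67 points at Hoxb1, 5.01 at Hoxd4, 3.74 at Hoxc5, 3.52 at Hoxa2 and 3.29 at Hoxd3. Brain columns 1 to 6 had levels at Hoxb1 of 13.4%, 7.18%, 23.6%, 15.9%, 16.7% and 5.43%, and at Hoxd4 of 13.4%, 8.85%, 20.6%, 15.7%, 14.2% and 6.52%. Columns 2 and 6 were low and column 3 high in both genes, which lie on different chromosomes. An SD above 2 points in brain was found at 6 of the 11 genes of groups 1 to 4, 4 of the 11 of groups 5 to 8 and none of the 16 of groups 9 to 13. It was found at 9.33% of the 1533 other genes with a mean level below 20%. Without brain columns 3 and 6 the SD was 4.31 points at Hoxb1 and 2.96 at Hoxd4, and it passed 2 points at 5, 2 and none of the members of these groups and at 10.6% of the other genes. Leaving out column 3 alone gave 6, 3 and none, and column 6 alone 6, 2 and none. In liver and heart only Hoxd4 passed 2 points, at 2.15 and 2.31. The median SD fell from groups 1 to 4 to groups 9 to 13 in every tissue. It fell from 2.11 to 0.62 points in brain, from 1.23 to 0.72 in liver and from 0.80 to 0.39 in heart. Levels fell along the same groups, and whether the spread followed the level was not tested. The genes named here, other than Hoxb1, Hoxc5 and Hoxa7, were singled out after their values were seen.

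**Figure D3:**
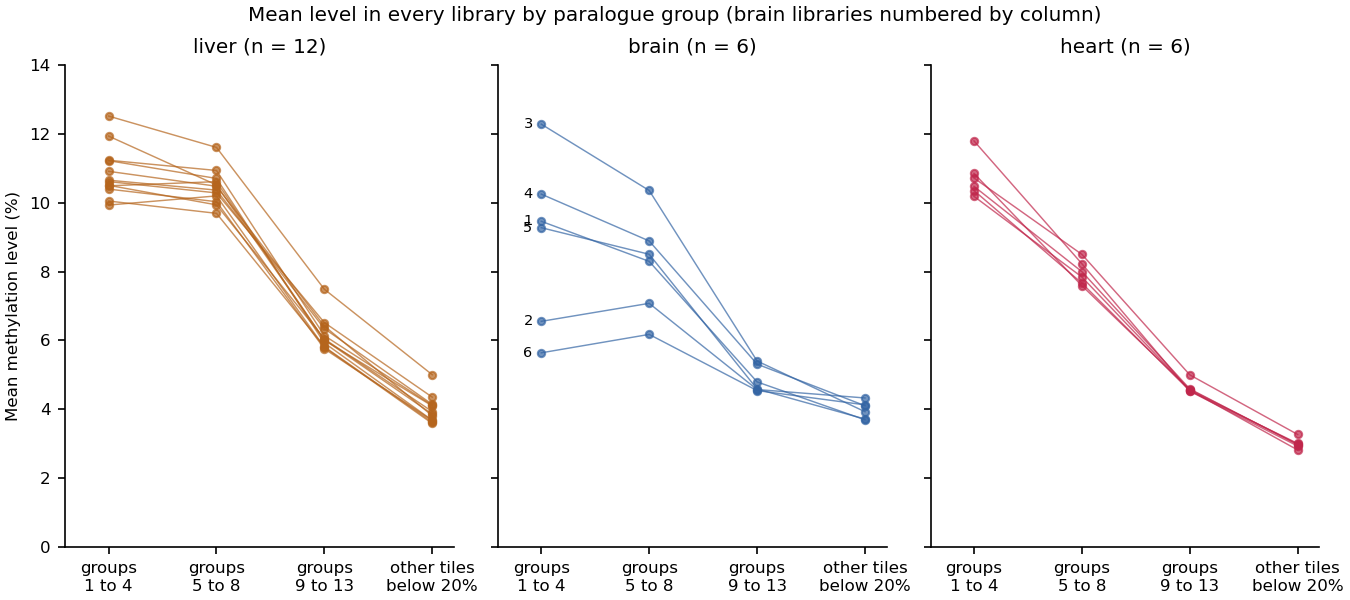
Mean level in percent (y axis) of every library over the tiles of paralogue groups 1 to 4, 5 to 8 and 9 to 13 and over all other tiles with a mean below 20% (x axis), in 3 panels for liver, brain and heart, with a line per library and brain libraries numbered by column. The brain lines fan out to 5.64 to 12.3% at groups 1 to 4 and close to 4.54 to 5.40% at groups 9 to 13.

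Each pair of tissues was then compared gene by gene with limma, a linear model that borrows the estimate of spread across all genes, and a gene was called where its Benjamini-Hochberg adjusted p was at most 0.01 and its means lay 10 or more percentage points apart. By this rule 0 of the 38 members were called between brain and liver, where 8.57% of all genes were, 0 between heart and liver (13.7% of all genes) and 0 between brain and heart (10.6%). Among all genes with a mean level below 20%, for which a difference of that size is harder to reach, 3.69%, 3.06% and 1.53% were called. With an unadjusted p under 0.05 and no minimum difference, limma found 28, 32 and 11 members (73.7%, 84.2% and 28.9%), beside 74.6%, 85.4% and 71.6% of all genes, and none of these members had a difference of 10 points.

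Smaller differences with liver were mostly towards lower levels in brain and heart, and in heart against liver the shares of members that moved were near those of all genes. At an adjusted p of 0.01 or less by limma without a minimum size, 22 members were lower in brain than in liver (40.5% of all genes) and 1, Hoxa7, was higher (24.0%). In heart against liver 26 members were lower (69.1% of all genes) and 4 were higher (10.2%): Hoxa2, Hoxb4, Hoxd3 and Hoxd4, all of groups 2 to 4. In brain against heart 4 members were lower (8.19%), namely Hoxb3, Hoxb4, Hoxd4 and Hoxd8, and 3 were higher (53.6%), namely Hoxc5, Hoxc13 and Hoxd1. The shares for all genes are given for the same direction. Several of these small differences turned with the summary used. At Hoxa7 brain was below liver by the median over tiles (8.32% and 10.8%) and within 1 kb of the start (15.2% and 17.7%). These levels within 1 kb rest on fewer than 5 tiles and were not tested. Without brain column 3 the adjusted p at Hoxa7 was 0.038 by limma. Within 1 kb of the start Hoxa2, Hoxb4 and Hoxd3 were lower in heart than in liver, at -1.02, -1.22 and -1.75 points, and by the median over tiles Hoxb4 and Hoxd3 differed by only 0.025 and 0.17 points. In brain against heart, Hoxd8 differed by 0.083 points by the median over tiles, and Hoxd1 and Hoxc13 by 0.17 and 0.43 points, none of them past the threshold. The 2 comparisons with liver share the liver libraries. The median difference over the members was -1.61 points in brain against liver, -2.0 in heart against liver and 0.15 in brain against heart, beside -0.93, -3.89 and 2.59 for all genes.

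**Figure D4:**
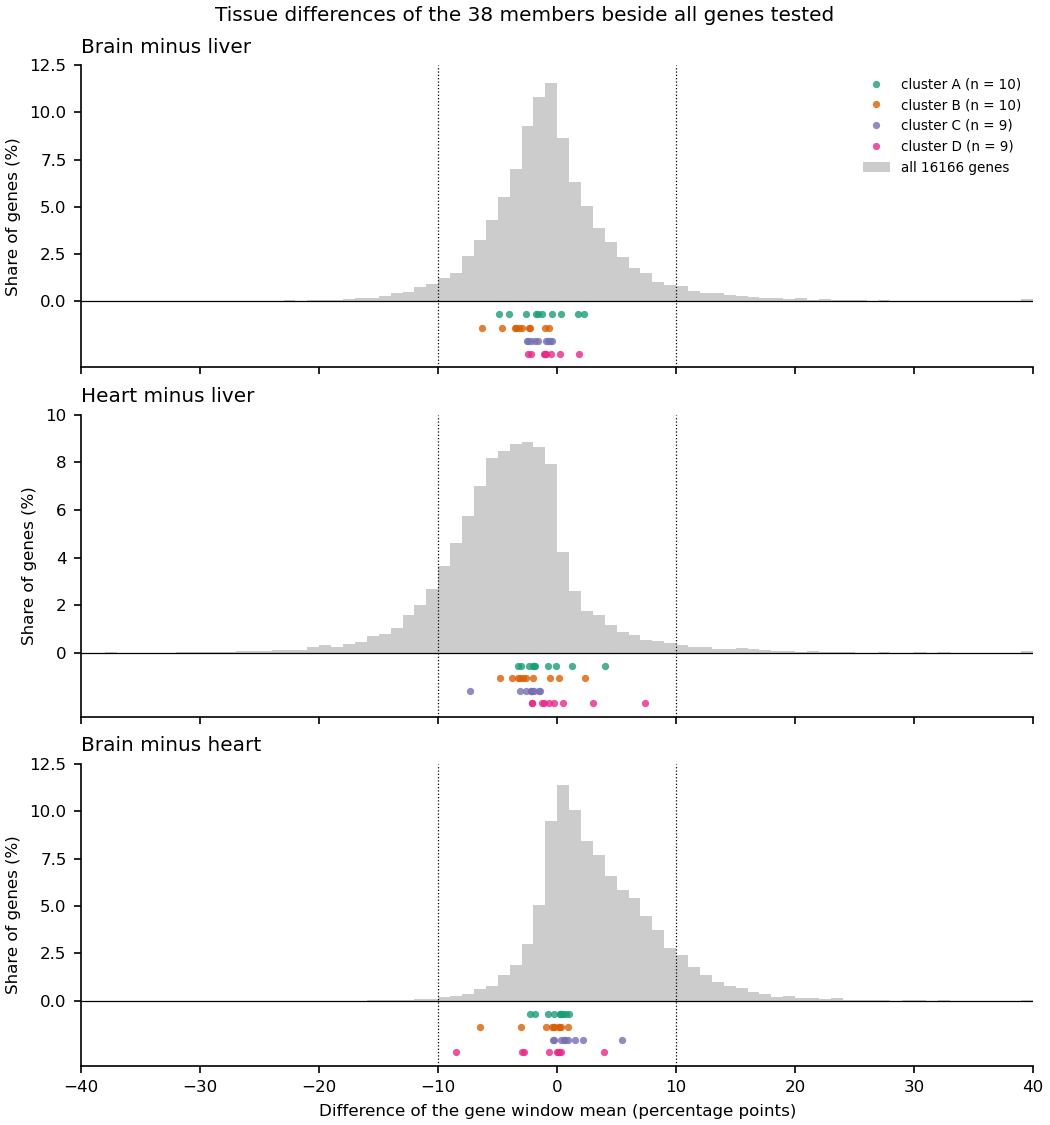
Difference of the window mean in percentage points (x axis) for all 16166 genes (grey bars, share of genes in percent) and for the members of each cluster (coloured points below 0), in 3 panels for the 3 pairs of tissues, with dotted lines at 10 points. No member lies beyond 10 points, and the outermost are Hoxd4 at -8.49 in brain against heart and 7.41 in heart against liver.

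Examples of the small differences came from the middle of clusters A and B, where Hoxa5, Hoxa6 and Hoxb5 to Hoxb8 specify neck and trunk segments. At Hoxa5, Hoxa6, Hoxb7 and Hoxb8 differences with liver kept direction and an adjusted p of at most 0.01 by limma in each alternative measured. Hoxb5 and Hoxb6 did not always. Within 1 kb of its start Hoxb5 differed by -0.40 points in brain against liver, beside -3.57 over its window. With tiles in 1 gene window only, Hoxb6 differed by -0.69 points in heart against liver, beside -2.91. Hoxa5 ranged from 9.67 to 14.2% in liver, 4.49 to 9.11% in brain and 8.26 to 10.4% in heart. All brain libraries lay below all liver libraries, with a mean difference of -4.91 points (SE 0.66, adjusted p = 2.58e-07 by limma), while heart overlapped liver. Hoxb8 ranged from 8.25 to 10.7% in liver, 4.69 to 7.40% in brain and 4.62 to 6.24% in heart, so that both tissues lay below every liver library. It differed by -3.46 points (SE 0.42, adjusted p = 5.60e-08) in brain against liver and -3.82 (SE 0.42, adjusted p = 5.91e-09) in heart against liver by limma. Hoxa5 and Hoxb8 were chosen after their values were seen. All brain libraries lay below all liver libraries at 10 of the 38 members (26.3%). The share was 24% of all genes and 17.4% of genes with a mean level below 20%. All heart libraries lay below all liver libraries at 15 members (39.5%), beside 54.5% and 24.5% of these genes.

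Hoxb3, Hoxc5 and Hoxd4 were the only members with a called difference of at least 5 points, a size reached by 28.6%, 45.9% and 34.8% of all genes in brain against liver, heart against liver and brain against heart, and apart from Hoxc5 they were chosen for it. Hoxb3, active in hindbrain and neck (chr11:96323126-96347930, 47 tiles), ranged from 10.3 to 16.6% in liver with a median of 12.8%, from 3.80 to 9.04% in brain with a median of 6.74%, and from 11.3 to 14.3% in heart with a median of 13.5%. Brain was low and did not overlap with liver or heart. It differed by -6.36 points from liver (SE 0.81, adjusted p = 1.30e-07) and by -6.53 points from heart (SE 0.94, adjusted p = 9.01e-07) by limma. Brain had the lowest of the 3 tissue means at 41 of the 47 tiles. Within 1 kb of the annotated start the difference from heart was larger, at -14.1 points (SE 2.09, adjusted p = 4.22e-06), and passed 10 points, as 4.22% of all genes did near their starts. By the median over tiles it was smaller, at -3.8 points.

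Hoxd4, also a gene of the hindbrain and neck (chr2:74721978-74729160, 24 tiles), ranged from 10.6 to 17.7% in liver with a median of 14.7%, from 6.52 to 20.6% in brain with a median of 13.8%, and from 19.4 to 25.7% in heart with a median of 21.1%. Heart lay above all liver libraries and overlapped brain only at brain column 3. It differed by 7.41 points from liver (SE 1.43, adjusted p = 3.72e-05), and brain differed from heart by -8.49 points (SE 1.65, adjusted p = 5.95e-05) by limma. These SEs rest on 1 estimate of spread for the 3 tissues. The between-library SD was 5.01 points in brain, 2.15 in liver and 2.31 in heart, so the comparison with brain is less certain than stated. Heart was the highest tissue at 21 of the 24 tiles. Without brain column 3 the difference of brain from heart was -9.96 points, and without brain column 6 it was -7.15. Near the start it was -11.5 points (SE 2.64, adjusted p = 1.11e-03). By the median over tiles it was -7.09 points, with an adjusted p of 0.0173 by limma, which misses the threshold.

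Hoxc5, a gene of the neck and upper trunk (chr15:103014008-103017429, 23 tiles), was lower in heart than in liver by 7.31 points (SE 0.90, adjusted p = 3.84e-08) and higher in brain than in heart by 5.43 points (SE 1.04, adjusted p = 4.68e-05) by limma. Without brain column 3 the second difference was 4.26 points, below 5. These SEs rest on 1 estimate of spread for the 3 tissues. The between-library SD was 3.74 points in brain, 0.70 in liver and 0.79 in heart, so the comparison with brain is less certain than stated. Heart was the lowest tissue at 22 of the 23 tiles. In tiles that lie in the window of Hoxc5 alone, the difference of heart from liver was -10.1 points (SE 0.90, adjusted p = 1.41e-10), and 15.5% of all genes passed 10 points in such tiles. By the median over tiles the difference was -4.32 points. Within 1 kb of the start the levels were 6.21% in liver and 2.49% in heart, from fewer than 5 tiles and not tested.

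The same 3 comparisons were made tile by tile, where a call needed an adjusted p of at most 0.01 by limma and means 25 or more points apart. Between brain and liver 5 of 823 Hox tiles were called (9.8% of all tiles), 2 higher in brain (4.76% of all tiles) and 3 lower (5.04%). Between heart and liver 7 were called (10.8%), 4 higher in heart (2.87%) and 3 lower (7.94%). Between brain and heart 1 was called (9.47%), lower in brain (1.76%), and none higher (7.71%). Of tiles with a mean level below 20% anywhere in the genome, 1.26%, 0.674% and 0.687% were called in the 3 comparisons, and of the 763 such Hox tiles 1, 1 and 0 were. Without a minimum size, 170, 207 and 62 Hox tiles had an adjusted p of at most 0.01 by limma (30.6%, 36.8% and 32.2% of all tiles), and 149, 173 and 42 of them were lower in brain, heart and brain (17.1%, 30.6% and 6.16% of all tiles). With the minimum set to 10 points, 29, 34 and 32 Hox tiles passed (24.6%, 28.8% and 27.5% of all tiles), and with 40 points 2, 2 and 0 (3.83%, 3.83% and 1.94%). The 9 distinct tiles called lay at Hoxa7 and Hoxa9, Hoxb3, Hoxc5 and Hoxd4, and 4 of them (2 of the 3 at Hoxa7 and Hoxa9, 1 at Hoxc5 and 1 at Hoxd4) were singled out after their values were seen.

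**Figure D5:**
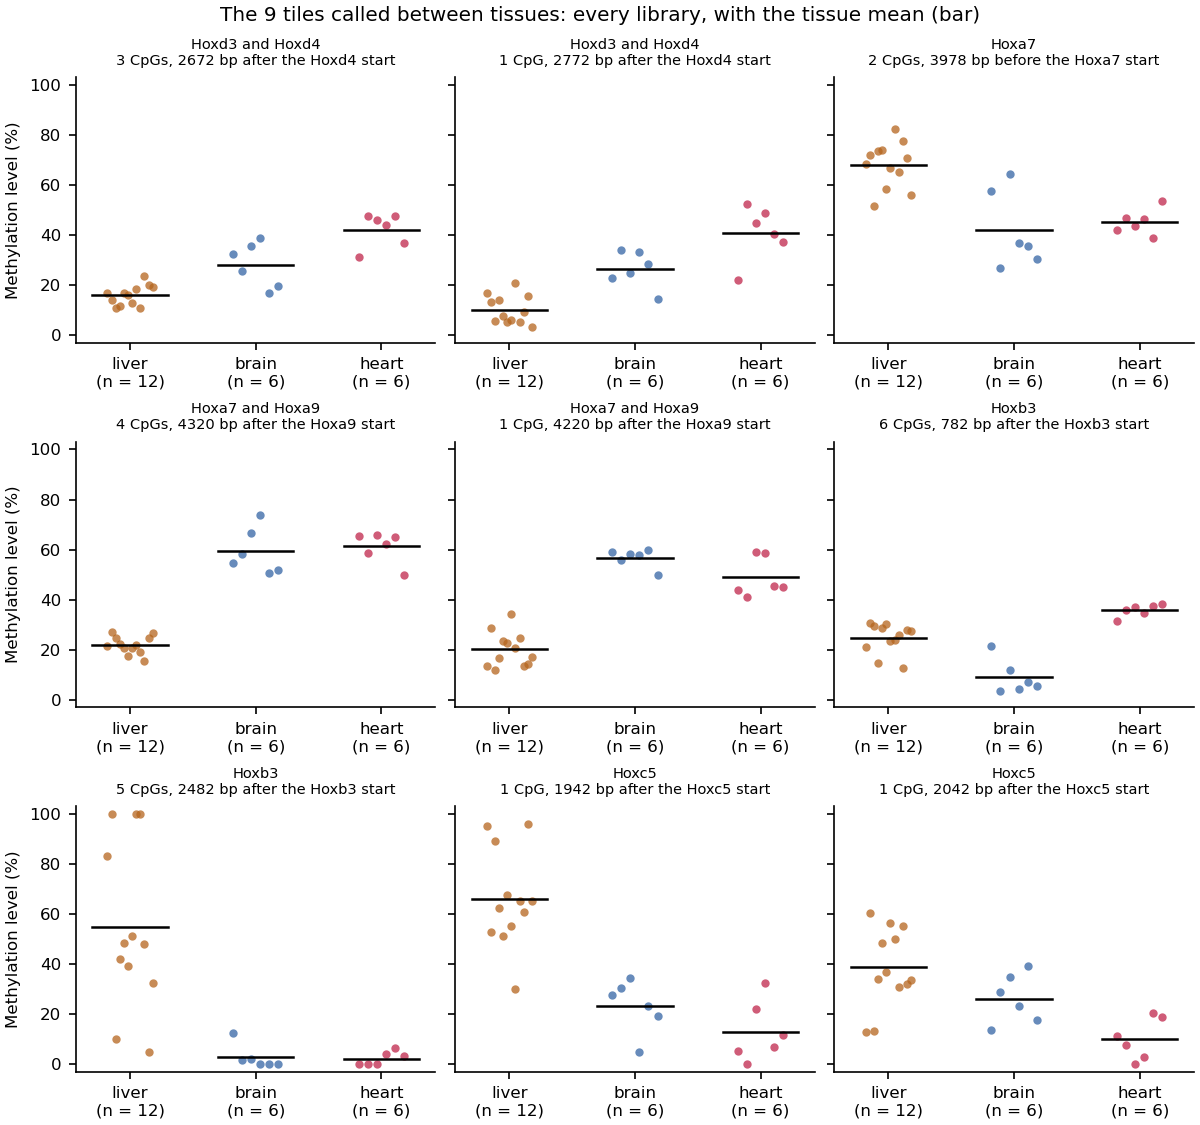
Methylation level in percent (y axis) of the 9 called tiles in every liver (n = 12), brain (n = 6) and heart (n = 6) library (points), with the tissue mean (bar), a panel per tile titled with the genes whose windows hold it, its CpGs and its distance from the nearest Hox start. The liver points at the Hoxb3 tile with 5 CpGs run from 4.8 to 100%, and brain and heart lie at or below 12.5%.

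Between Hoxa7 and Hoxa9, called tiles went in opposite directions. The tile chr6:52223001-52223100, at the 3′ end of Hoxa9, ranged from 15.4 to 27.0% in liver (median 21.7%), from 50.6 to 73.7% in brain (median 56.4%) and from 50 to 66% in heart (median 63.5%). Liver did not overlap with the other tissues, and the differences were 37.4 points in brain (SE 3.06, adjusted p = 1.04e-10) and 39.4 in heart (SE 3.06, adjusted p = 4.31e-11) by limma. The adjoining tile chr6:52223101-52223200, in the last exon of Hoxa9, ranged from 11.9 to 34.2% in liver, 50 to 59.7% in brain and 41.2 to 58.9% in heart, again with liver apart. Nearer to Hoxa7, the tile chr6:52222501-52222600, which lies between the genes, was high in liver: 51.6 to 82.4% (median 69.7%) against 26.7 to 64.6% in brain (median 36.3%) and 38.7 to 53.5% in heart (median 45.0%). Brain overlapped liver, and the difference of -26.1 points (SE 5.02, adjusted p = 1.23e-04 by limma) fell to -24.8 without liver column 8 and to -23.8 without brain column 6, below 25 points. The sequences (mm10, plus strand, CpGs in capitals) are shown because these stretches, so near each other, had opposite orders of tissue. The first stops just beyond the 3′ end of the last exon of Hoxa9.
chr6:52223001-52223096: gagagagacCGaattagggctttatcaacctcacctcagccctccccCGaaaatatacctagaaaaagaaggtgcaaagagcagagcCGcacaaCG
chr6:52222501-52222600: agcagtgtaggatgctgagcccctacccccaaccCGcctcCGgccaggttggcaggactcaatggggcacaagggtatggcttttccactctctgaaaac

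In cluster B, both called tiles lay in the coding sequence of Hoxb3 and in an intron of its antisense transcript Hoxb3os. The tile chr11:96346201-96346300 had the widest spread in liver of the 9 called tiles: liver libraries ranged from 4.8 to 100% with a median of 48.3% (SD 33.6), brain libraries from 0.0 to 12.5% with a median of 0.9%, and heart libraries from 0.0 to 6.5% with a median of 1.6%. Liver columns 3 and 11, at 10% and 4.8%, lay within the range of brain, and 3 liver libraries stood at 100%. The differences were -52.2 points in brain (SE 11.2, adjusted p = 4.18e-04) and -52.7 in heart (SE 11.2, adjusted p = 3.29e-04) by limma. The 6 other tiles within 1 kb had liver means of 7.7 to 17.2%, brain means of 1.2 to 3.7% and heart means of 3.0 to 7.8%, so the high liver level was not shared by its neighbours. The tile chr11:96344501-96344600 ranged from 12.8 to 30.7% in liver (median 26.6%), from 3.5 to 21.4% in brain (median 6.2%) and from 31.5 to 38.4% in heart (median 36.3%). Heart lay above both other tissues, and brain differed from heart by -26.8 points (SE 3.03, adjusted p = 8.28e-08 by limma). Both sequences hold CpGs of coding DNA and are shown because the same gene carried a tile that was high in liver alone and a tile that was low in brain.
chr11:96346201-96346300: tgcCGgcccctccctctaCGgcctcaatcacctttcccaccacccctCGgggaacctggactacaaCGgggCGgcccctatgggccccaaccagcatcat
chr11:96344501-96344600: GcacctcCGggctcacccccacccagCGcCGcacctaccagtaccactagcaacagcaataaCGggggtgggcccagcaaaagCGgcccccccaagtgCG

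In cluster D, a pair of adjoining tiles in an intron of Hoxd4, also within an intron of the longer Hoxd3 transcript, rose from liver to brain to heart. The tile chr2:74724601-74724700 ranged from 10.8 to 23.8% in liver (median 16.4%), from 17.0 to 38.7% in brain (median 29.0%) and from 31.2 to 47.6% in heart (median 45.1%). The tile chr2:74724701-74724800, with a single CpG, ranged from 3.2 to 20.8% in liver (median 8.4%), 14.3 to 33.9% in brain (median 26.7%) and 22.2 to 52.4% in heart (median 42.8%). Heart did not overlap with liver at either tile, and brain overlapped with both tissues. Heart differed from liver by 26.3 points (SE 2.91, adjusted p = 2.78e-08) and 30.8 points (SE 3.5, adjusted p = 4.29e-08) by limma. These sequences are shown as the stretch where heart was furthest above liver in cluster D.
chr2:74724601-74724700: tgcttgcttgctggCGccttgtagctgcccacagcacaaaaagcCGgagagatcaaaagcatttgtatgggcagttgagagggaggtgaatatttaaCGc
chr2:74724701-74724800: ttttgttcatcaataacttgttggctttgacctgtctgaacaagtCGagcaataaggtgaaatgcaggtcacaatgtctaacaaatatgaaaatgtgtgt

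In cluster C, a pair of tiles in the last exon of Hoxc5, beyond its coding sequence and with 1 CpG each, was high in liver. The tile chr15:103015901-103016000 ranged from 30.0 to 96.0% in liver (median 63.9%), 4.8 to 34.4% in brain (median 25.5%) and 0.0 to 32.3% in heart (median 9.25%). The lowest liver library lay within the range of the other tissues, and the differences were -42.6 points in brain (SE 7.44, adjusted p = 3.58e-05) and -52.9 in heart (SE 7.44, adjusted p = 1.44e-06) by limma. The next tile, chr15:103016001-103016100, ranged from 13 to 60.6% in liver, 13.6 to 39.2% in brain and 0.0 to 20.4% in heart, and was called between heart and liver only, at -28.5 points (SE 6.01, adjusted p = 3.08e-04 by limma). The difference between heart and brain at this tile, 16.0 points, had an adjusted p of 0.065 by limma.

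Further Hox tiles above 50% in some tissue were not called at 25 points, and those given here were singled out by that level. The tile chr2:74759301-74759400, at -3630 bp from the Hoxd1 start in an intron of the transcript Haglr, was nearly fully methylated in every library, from 86.4 to 100% in liver, 93.8 to 100% in brain and 91.3 to 100% in heart, and all tissues overlapped. In the coding sequence of Hoxd1, the tile chr2:74764301-74764400 had a mean of 57.8% ± 6.87 (SD, n = 12) in liver, 61.1% ± 11.5 (SD, n = 6) in brain and 47.6% ± 11.4 (SD, n = 6) in heart. A tile in an intron of Hoxa3 (chr6:52199901-52200000) had means of 58.2%, 45.8% and 58.7%, and a tile at -2278 bp from the Hoxa7 start (chr6:52220801-52220900) 61.2%, 60.3% and 70.2%, in liver, brain and heart.

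Most non-coding transcripts measured inside the clusters were low as well. Hottip, at the 5′ edge of cluster A (7 tiles), had means of 5.01%, 3.89% and 3.98% in liver, brain and heart. Hotairm1, at the 3′ edge of cluster A (11 tiles), had 6.18%, 8.09% and 10.3%, and Hotair, in cluster C (4 tiles), 13.8%, 9.78% and 8.83%. The miRNA genes Mir196a-2, Mir196b and Mir615, with at most 2 tiles each, lay between 2.3 and 6.8% in all 3 tissues. Mir196a-1 was read by 1 tile, with 30.1% in liver, 8.5% in brain and 17.3% in heart. Its liver level was above the window mean of every member, but single tiles in member windows reached up to 93.8% in liver. Mir10b was also read by 1 tile, with 19.8%, 14.9% and 21.0%, and Mir10a by none.

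Other developmental and related genes were set beside the members from fixed lists. Of all genes, 8.57%, 13.7% and 10.6% were called at 10 points in brain against liver, heart against liver and brain against heart. An unadjusted p under 0.05 by limma was found for 74.6%, 85.4% and 71.6% of all genes. ParaHox and Evx genes and Mnx1, the closest relatives of Hox genes (7 genes measured), had median levels of 7.60% in liver, 5.82% in brain and 4.70% in heart, and 0 were called at 10 points in each comparison by limma, with 4, 7 and 2 at an unadjusted p under 0.05. The 8 measured Pax genes had medians of 29.0%, 32.7% and 23.8%, with Pax6 called higher in brain than in liver (10.46 points) and than in heart (10.9 points), and Pax7 and Pax8 higher in brain than in heart. Hox cofactors, homeodomain proteins that bind DNA beside Hox proteins (9 genes), had medians of 56.4%, 59.3% and 54.8%. Meis1 was called lower in brain than in liver (-10.2 points). In heart against liver 1 cofactor was called lower, and 7 had an unadjusted p under 0.05 by limma. None was called between brain and heart, where 5 had an unadjusted p under 0.05 by limma. The 15 genes for Polycomb proteins and their counterparts had medians of 37.7%, 36.2% and 32.9%. Among them Ring1 was called lower in brain than in liver (-10.3 points). None was called in the other comparisons by limma, with 11 and 10 at an unadjusted p under 0.05 in heart against liver and brain against heart.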

How the data were processed

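Methylation was measured by enhanced RRBS with Methyl-MiniSeq libraries in 12 liver, 6 brain and 6 heart samples, mapped to mm10 (Bismark and methylKit are named in the submitters' processing notes). The authors summarised CpG calls with methylKit in 100 bp tiles, kept those covered by more than 10 reads in all samples of a tissue, and deposited methylation levels as a fraction between 0 and 1 per tile and library, with no counts, so depth and counting error are unknown. The deposited tables, 1 per tissue, held 819713 liver, 942643 brain and 930358 heart autosomal tiles. Columns were given to the tissue of their table, since their numbers match no mouse. Tissues share mice, which could not be modelled.

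Fractions were multiplied to percent and joined over the 758685 tiles in all 3 tables. Gene windows came from curated RefSeq transcripts. Levels were compared with limma 3.58.1 in R 4.3.3 on percent, with a mean-variance trend, 1 estimate of spread for the 3 tissues and Benjamini-Hochberg adjustment over all tiles or over all 16166 genes with at least 5 tiles. Tested on simulated data, the tile fit recovered 94.5% of the tiles to which 35 points were added, between brain and liver, with 0 false calls. The simulated libraries were independent normal draws with 1 spread per tile for the 3 tissues. Unequal spread between tissues and shared mice were therefore not tested. Named genes were the lowest and highest member of each cluster by the mean over tissues and up to 5 called members per comparison, and named tiles up to 5 called tiles per comparison with the largest difference, at most 1 per gene. Members and lists were chosen with earlier results of these data known. Alternatives were another scale, no trend, other minimum differences, tiles and windows, and fits without liver column 8, brain column 3 or brain column 6. The authors' comparisons of genders were not used. A few results on single genes and tiles are not reported here.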

Additional observations from a re-analysis of the deposited data

Results flagged for a closer look

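In groups of 6 libraries, a library was marked when its gap to the nearest of the others took a larger share of the group's range than Dixon's critical value for 6 samples, a limit that chance passes in about 5% of groups. Of 66 groups looked at, 3 were marked. At the Hoxb3 tile chr11:96346201-96346300, brain column 1 had 12.5% and the next brain library 2.1%. Over the tiles of paralogue groups 9 to 13, heart column 3 had 4.998% and the next heart library 4.59%. At the Hoxa3 intron tile chr6:52199901-52200000, heart column 3 had 62.6% and the next heart library 58.7%.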

How the results depend on the processing

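No paired analysis was possible because the numbering of the columns could not be tied to animals. Of the comparisons at named tiles, 82 alternatives stayed on the same side of the threshold and 2 fell below it, both at the Hoxa7 tile described above, and of those at named genes, read against the minimum of 10 points, 41 stayed and 3 newly passed it. Of the 23, 30 and 7 member differences with an adjusted p of at most 0.01 by limma and no minimum (brain against liver, heart against liver, brain against heart), 18, 28 and 2 kept it and their direction by the median over tiles, 15 of 19, 20 of 25 and 2 of 6 measured within 1 kb of the start, and 17 of 20, 21 of 25 and 5 of 6 with tiles in 1 gene window only. Reversed were Hoxa7 in brain against liver (-2.525 points by the median, -0.30 with tiles in 1 gene window only), Hoxa2, Hoxb4 and Hoxd3 in heart against liver within 1 kb (-1.02, -1.22 and -1.75) and Hoxd8 in brain against heart (0.083 by the median, 0.14 within 1 kb), and the cause was not tested. Lost were Hoxa7 and Hoxd12 without brain column 3, Hoxb2, Hoxc9 and Hoxd9 without brain column 6 and Hoxb2 without liver column 8, all in brain against liver, and Hoxb1 in heart against liver without liver column 8. The fit with no trend also lost Hoxb2, Hoxc9, Hoxd9 and Hoxd12 in brain against liver, with adjusted p of 0.0147 to 0.0177 by limma. The brain level of Hoxd1, above that of liver as a mean, was below it by the median (2.48% and 4.80%), and cluster D turned as described above. With at least 3 CpGs per tile, 2 Hox tiles were called in brain against liver and 3 in heart against liver (8.22% and 8.75% of all such tiles). With a minimum of 10 points the tile counts were 29, 34 and 32 (brain against liver, heart against liver, brain against heart), and with 40 points 2, 2 and 0. With a minimum of 5 points 1, 2 and 3 members were called. With tiles in 1 gene window only, 1 of 33 members measured (Hoxc5) was called in heart against liver (15.5% of all genes), and within 1 kb of the start 2 of 32 (Hoxb3 and Hoxd4) in brain against heart (4.22%). Cluster levels fell when the median over tiles was taken, to 6.19%, 4.22% and 4.02% in liver, brain and heart for cluster A, 6.41%, 3.55% and 3.925% for B, 5.18%, 3.82% and 3.13% for C, and 4.92%, 3.75% and 3.92% for D. Within 1 kb of the starts they were 6.46%, 4.33% and 4.55% for A, 8.12% in liver and 6.61% in heart for B, 5.68%, 3.96% and 3.68% for C, and 5.86%, 4.30% and 4.92% for D. With all tiles of the heart table, heart was at 8.26% in B and 9.20% in D. The fits without liver column 8, brain column 3 or brain column 6, and the brain spread without them, were added after the data were seen. Depth per tile is unknown, tiles with 1 CpG rest on a single site, and the shared mice could not be modelled.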
